A study of Mus musculus with 20 samples.

Results

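Genes of 3 forms of regulated lytic cell death were followed in mouse kidney: necroptosis (Zbp1, Ripk1, Ripk3, Mlkl and the caspase that restrains it, Casp8), pyroptosis (Casp1, Casp4, Gsdmd) and ferroptosis (Acsl4, Gpx4). The 10 genes were taken by symbol, and each matched 1 of the 55822 rows of the count table. RNA of whole kidney was sequenced after poly(A) selection from male C57BL/6J mice, 8 weeks old, in 4 labelled groups of 5 samples. One group received PBS (Control), one puberulic acid at 1 mg per day, and the remaining 2 a normal or a toxic lot of the supplement Choleste-Help at 1000 mg per day. Each mouse received 6 daily doses from day 0 to day 5, and kidneys were taken on day 7 after an untreated day. The labels name both oral dosing and intraperitoneal injection, so the route of a given sample is not known. The comparison made here is puberulic acid, a tropolone made by some Penicillium moulds, against Control. The names of 10 of the 20 columns do not show which lot they hold, and those columns are not analysed here. The labels number the samples of a group but do not say that each is a separate mouse, so p-values measure the spread between these samples.

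The 3 pathways end in a broken plasma membrane but reach it by different routes. In necroptosis, the kinases RIPK1 and RIPK3 or the nucleic acid sensor ZBP1 lead to phosphorylation of MLKL, which then permeabilizes the membrane, while caspase-8 cleaves RIPK1 and RIPK3 and holds the pathway back. In pyroptosis, caspase-1 (in inflammasomes) or mouse caspase-11, the product of Casp4, cleaves gasdermin D, whose freed part forms pores. Ferroptosis is driven by iron-dependent peroxidation of membrane phospholipids: ACSL4 loads them with the polyunsaturated acids that are oxidized, and the selenoprotein GPX4 reduces the peroxides. All 3 routes have been described in acute kidney injury, where tubular epithelium is lost. These are measurements of RNA, and protein phosphorylation, cleavage and cell death were not measured.

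The 10 libraries held 18409877 to 24705587 estimated counts. Values are given as CPM, the count scaled to a library size corrected by trimmed mean of M-values (TMM). Genes were tested by quasi-likelihood in edgeR, with p adjusted by Benjamini-Hochberg over all 16266 genes tested, and a gene was called at an adjusted p under 0.05. The response was broad: 65.3% of all genes tested were called, 34.2% higher and 31.1% lower, so a call by itself sets no gene apart. Scaling to total counts in place of TMM moved the median log2 fold change of all genes from 0.05 to 0.56, and changes below are relative to the TMM scale. Markers of some of the cell types present also moved. The summed level of 12 proximal tubule markers was 15303 to 18800 CPM in the controls and 1483 to 2671 CPM with puberulic acid, with all 12 called lower. The summed level of 12 macrophage and monocyte markers was 107.7 to 246.0 CPM in the controls and 261.4 to 900.4 CPM with puberulic acid, with 10 of the 12 called higher. The 2 not called were Csf1r (log2 fold change 0.27, edgeR adjusted p = 0.234) and Adgre1 (1.33, edgeR adjusted p = 0.0564). Of 8 endothelial markers, 2 were called lower and 6 were not called. Their summed level was 262.6 to 394.7 CPM in the controls and 150.5 to 330.7 CPM with puberulic acid. In whole tissue, more or fewer cells of a type and more or less RNA per cell cannot be told apart.

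All 10 members passed the filter on low counts. Of the 10, 8 were called, where 65.3% of all tested genes were: 7 rose with puberulic acid (Mlkl, Ripk3, Casp4, Casp1, Acsl4, Ripk1 and Casp8), 1 fell (Gpx4), and 2 were not called (Zbp1 and Gsdmd). The median log2 fold change of the 10 was 1.21, against 0.05 over all genes tested. The CPM ranges of the groups lay apart for 5 members that were higher and for 1 that was lower, where ranges were apart for 50.1% of all tested genes, 26.1% in the higher and 24.0% in the lower direction. The members' values were not spread evenly over the samples. Control replicate 1 was the control nearest to the puberulic acid group for 8 of the 10 members, and puberulic acid replicate 1 was the treated sample nearest to the controls for 9 of the 10. Without control replicate 1, all 10 members were called, 9 higher and 1 lower, and so they were without puberulic acid replicate 1. Of all genes tested in these 2 fits, 10947 of 16685 and 11108 of 16589 were called. Both samples were picked here from the same values, which by itself favours more calls. With any 1 other sample left out, 7 or 8 members were called.

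**Figure D1:**
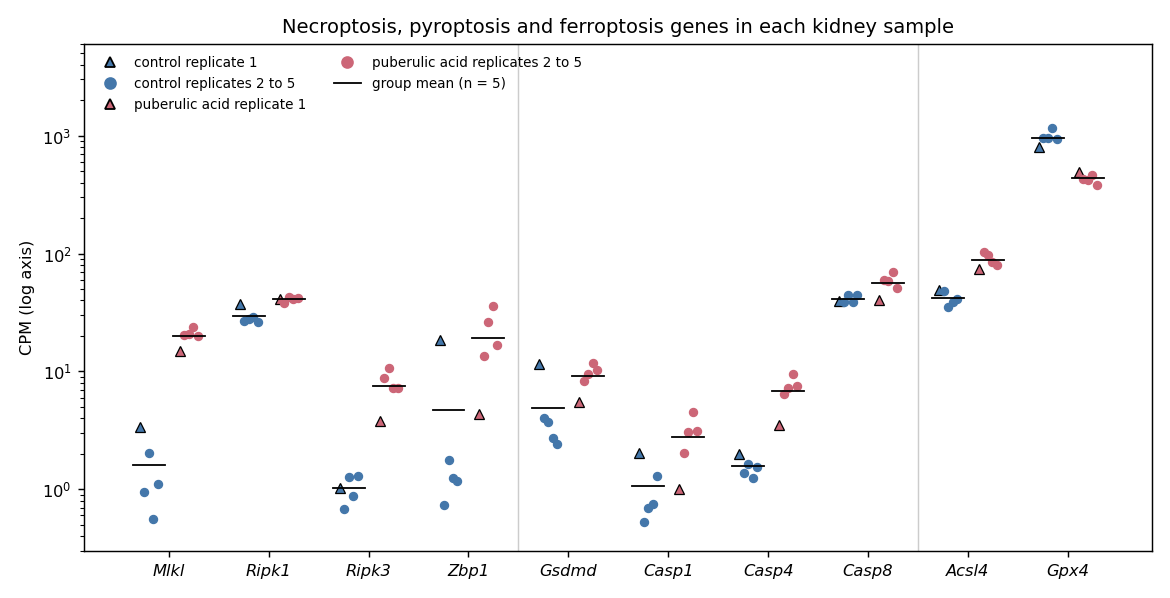
CPM (log axis) of the 10 genes in each of the 5 Control (blue) and 5 puberulic acid (red) samples, with the group mean as a bar and replicate 1 of each group as a triangle. Mlkl and Ripk3 lie well apart between the groups, Gpx4 lies lower with puberulic acid, and for Zbp1 and Gsdmd a single control, replicate 1, lies among the treated samples.

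Levels were compared between genes per kilobase of exon, with lengths from GENCODE M21. Gpx4 was the most abundant member in both groups, at 559.6 ± 71.8 CPM per kb (SD, n = 5) in the controls and 253.2 ± 24.5 (SD, n = 5) with puberulic acid. In the controls it was followed by Casp8 (14.2 ± 1.07 CPM per kb), Acsl4 (7.84 ± 1.1) and Ripk1 (3.53 ± 0.535; SD, n = 5 each). The other 6 members had mean levels of 0.422 to 2.06 CPM per kb in the controls, and from Ripk1 down the ranges of neighbours in this order overlapped. With puberulic acid the order changed: Mlkl, at 8.61 ± 1.37 CPM per kb (SD, n = 5), came next after Casp8 (19.3 ± 3.73) and Acsl4 (16.3 ± 2.24), whose ranges overlapped each other. From Mlkl down, the ranges of neighbours again overlapped.

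Mlkl (ENSMUSG00000012519), the executioner of necroptosis, had the largest fold change of the 10. Its level in control replicates 1 to 5 was 3.37, 0.949, 2.04, 0.561 and 1.1 CPM, from 9 to 59 counts. In puberulic acid replicates 1 to 5 it was 14.9, 20.2, 20.6, 23.7 and 19.8 CPM, from 401 to 615 counts. Every treated sample was thus above every control, and the lowest treated sample was replicate 1. The rise was 12.3-fold (log2 fold change 3.62 ± 0.37, SE, edgeR adjusted p = 4.79e-06). Over the 19 alternative settings the log2 fold change of Mlkl ran from 3.39 to 4.13, and the call held in each.

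Ripk3 (ENSMUSG00000022221), the kinase that phosphorylates MLKL, was scarce in the controls and rose 7.3-fold. Its control levels were 1.03, 0.685, 1.27, 0.872 and 1.30 CPM, and its levels with puberulic acid were 3.79, 8.77, 10.7, 7.21 and 7.20 CPM. The groups did not overlap (log2 fold change 2.87 ± 0.30, SE, edgeR adjusted p = 5.14e-06). Unlike for Mlkl, control replicate 1 lay within the range of the other controls for Ripk3. The other kinase of the pair, Ripk1 (ENSMUSG00000021408), which also carries survival signals from the TNF receptor, changed far less. It was at 37.3, 26.8, 27.8, 28.7 and 26.5 CPM in the controls and 41.2, 38.3, 43.2, 41.3 and 41.6 CPM with puberulic acid. Control replicate 1 stood out among the controls but stayed below the lowest treated sample, and the rise was 1.4-fold (log2 fold change 0.48 ± 0.10, SE, edgeR adjusted p = 0.00117).

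Casp8 (ENSMUSG00000026029), whose product restrains necroptosis, rose 1.35-fold, with overlapping groups. It was at 39.2, 39.0, 44.4, 38.7 and 44.7 CPM in the controls and at 40.2, 60.2, 58.2, 69.2 and 51.4 CPM with puberulic acid. Replicate 1 of the treated group lay within the control range and the other 4 above it (log2 fold change 0.44 ± 0.13, SE, edgeR adjusted p = 0.0101). Ripk1 and Casp8 kept their calls in all 19 alternatives.

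Zbp1 (ENSMUSG00000027514), the sensor of Z-form nucleic acid and an interferon-induced gene, was split by 1 control. Its level was 18.4 CPM in control replicate 1 and 0.738, 1.78, 1.25 and 1.17 CPM in replicates 2 to 5. With puberulic acid it was 4.38, 13.6, 26.5, 35.6 and 16.6 CPM. Each treated sample was thus above 4 of the 5 controls, while control replicate 1 was above 3 of the 5 treated samples. With all samples Zbp1 was not called (log2 fold change 2.04 ± 0.85, SE, edgeR adjusted p = 0.0506). Without control replicate 1 the log2 fold change was 3.96 (edgeR adjusted p = 0.000125), the 4 remaining controls averaged 1.23 ± 0.428 CPM (SD, n = 4), and the groups did not overlap. The adjusted p of Zbp1 ran from 0.000125 to 0.128 over the 19 alternatives, with a call in 9.

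The same control carried high levels of interferon-induced genes. In a list of 14 such genes (among them Ifit1, Ifit2, Ifit3, Isg15, Irf7, Irf1, Rsad2, Usp18, Bst2, Oasl2, Rtp4, Igtp and Psmb8), chosen after these values were seen, control replicate 1 was above every other control for all 14. The summed level of the list was 2556 CPM in control replicate 1, 146.1 to 174.1 CPM in the other 4 controls, and 298.6 to 1294 CPM with puberulic acid. Irf1, a transcription factor induced by interferon, was at 169.5 CPM in control replicate 1, at 9.75 to 12.4 CPM in the other controls and at 25.6 to 56.8 CPM with puberulic acid. Igtp, an interferon-inducible GTPase, was at 893.6 CPM in that control and at 14.8 to 70.7 CPM with puberulic acid. Among the puberulic acid samples, replicate 1 had the lowest and replicate 4 the highest summed level, and the same 2 samples had the lowest and the highest levels of 6 of the 10 members (Zbp1, Gsdmd, Mlkl, Casp1, Casp4 and Casp8) and of the summed macrophage and monocyte markers. The part of this difference between samples in the results for single members was not tested.

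**Figure D2:**
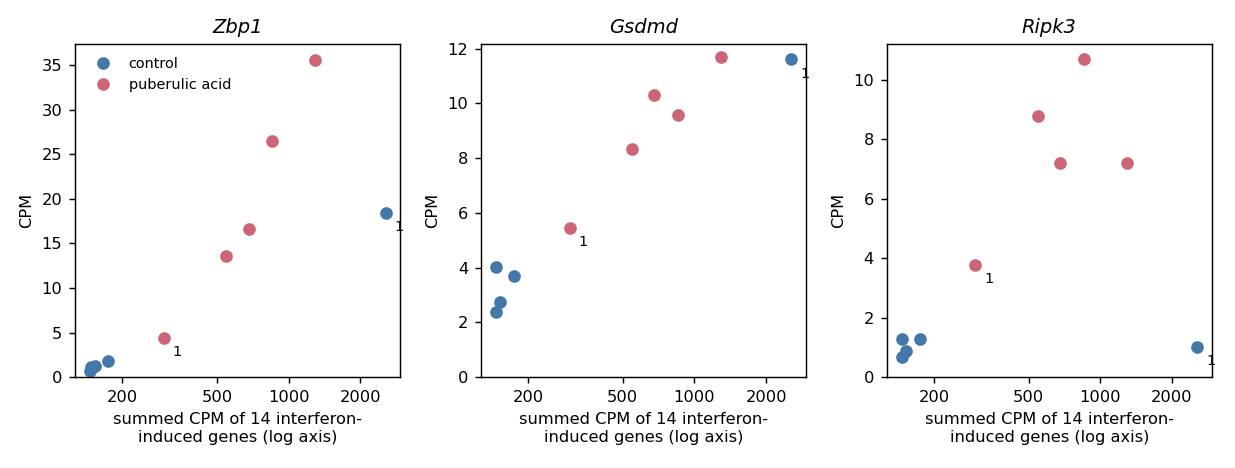
CPM of Zbp1, Gsdmd and Ripk3 in each sample against the summed CPM of 14 interferon-induced genes (log axis), with Control in blue, puberulic acid in red and replicate 1 of each group numbered. Control replicate 1, at a summed level of 2556 CPM, has high Zbp1 (18.4 CPM) and Gsdmd (11.6 CPM) but Ripk3 at 1.03 CPM, within the range of the other controls.

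Gsdmd (ENSMUSG00000022575), the pore-forming substrate of the inflammatory caspases, showed the same split. Its control levels were 11.6, 4.01, 3.69, 2.74 and 2.40 CPM, and its levels with puberulic acid were 5.46, 8.35, 9.57, 11.7 and 10.3 CPM. Control replicate 1 lay near the top of the treated range, and each treated sample was above the other 4 controls. With all samples Gsdmd was not called (log2 fold change 0.88 ± 0.40, SE, edgeR adjusted p = 0.0709). Without control replicate 1 the log2 fold change was 1.48 (edgeR adjusted p = 0.000345), and without puberulic acid replicate 1 it was 0.99 (edgeR adjusted p = 0.0467). Leaving out any of the other 8 samples gave no call, and over the 19 alternatives the adjusted p of Gsdmd ran from 0.000345 to 0.163, with a call in 6.

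Casp4 (ENSMUSG00000033538), which encodes the caspase that senses cytosolic lipopolysaccharide, rose 4.34-fold. It was at 2.00, 1.37, 1.65, 1.25 and 1.56 CPM in the controls and at 3.49, 6.39, 7.24, 9.49 and 7.45 CPM with puberulic acid, with no overlap (log2 fold change 2.12 ± 0.26, SE, edgeR adjusted p = 2.30e-05). Casp1 (ENSMUSG00000025888), the inflammasome caspase, rose 2.58-fold with overlapping groups. Its levels were 2.05, 0.527, 0.7, 0.748 and 1.30 CPM in the controls and 1.00, 2.04, 3.05, 4.56 and 3.15 CPM with puberulic acid, from 10 to 112 counts (log2 fold change 1.37 ± 0.45, SE, edgeR adjusted p = 0.0175). The call of Casp1 was lost without puberulic acid replicate 4, its highest sample (log2 fold change 1.07, edgeR adjusted p = 0.0592). Both caspase genes and Gsdmd are known to be expressed in macrophages, and their lowest treated sample, replicate 1, was also the treated sample with the lowest summed macrophage marker level (261.4 CPM against 521.3 to 900.4 CPM in the other 4). Among the controls, replicate 4 had the highest macrophage sum (246.0 CPM) and the lowest Casp4 (1.25 CPM), with Casp1 at 0.748 and Gsdmd at 2.74 CPM. Control replicate 1 had the next highest sum (187.3 CPM, against 107.7 to 132.6 CPM in the other 3) and the highest control level of all 3 genes. The part of macrophage RNA in these rises was not tested. The summed level of 10 neutrophil markers was low in both groups but did not overlap, at 1.34 to 3.93 CPM in the controls and 4.16 to 8.48 CPM with puberulic acid. Of the 4 neutrophil markers tested, the receptor genes Cxcr2 (log2 fold change 1.87) and Csf3r (1.66), named after their values were seen, rose. The other 2, S100a9 (0.66, edgeR adjusted p = 0.444) and Ltf (0.14, edgeR adjusted p = 0.886), were not called, and Ly6g had no count in any of the 10 samples. The part of neutrophil RNA was not tested either. Sums of 10 T and NK cell markers ran from 4.29 to 8.27 CPM in the controls and from 8.99 to 18.3 CPM with puberulic acid, and those of 7 B and plasma cell markers from 3.24 to 5.47 CPM and from 3.54 to 6.03 CPM. Of the 8 T and NK cell markers tested, 3 were called higher (Cd4, Lck and Cd3d). The other 5 (Cd3e, Cd3g, Cd8a, Cd2 and Nkg7) were not called, and neither were the 3 B and plasma cell markers tested.

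**Figure D3:**
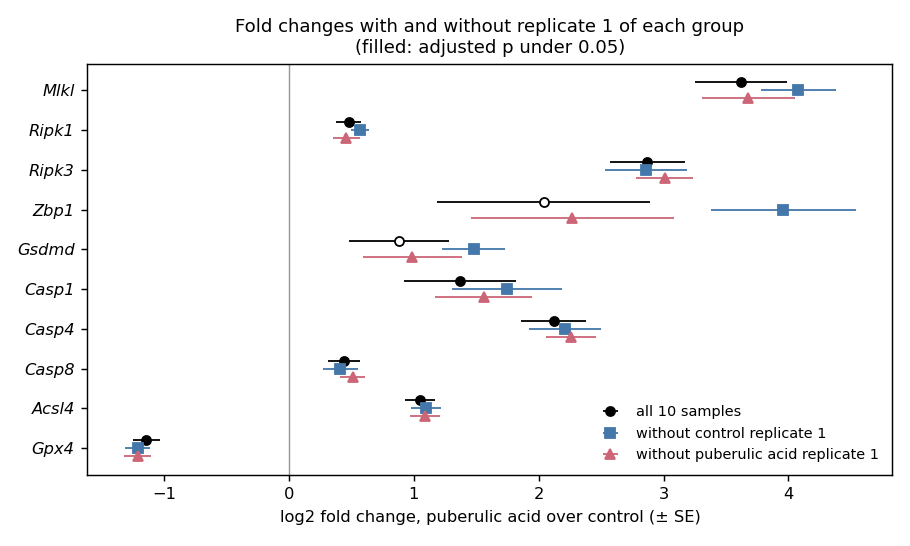
Log2 fold change (± SE) of puberulic acid over Control for each gene, with all 10 samples (black circles), without control replicate 1 (blue squares) and without puberulic acid replicate 1 (red triangles), filled where the adjusted p was under 0.05. Zbp1 moves from 2.04 to 3.96 and Gsdmd from 0.88 to 1.48 when control replicate 1 is left out, and Ripk3, Casp4, Acsl4 and Gpx4 move little.

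The promoters of the members were searched for 4 motifs, on both strands, in the 250 bases before each RefSeq start (GRCm38.p6). Of the 10 members, 8 matched the promoter table, with 13 starts; Zbp1 and Gsdmd did not match. The interferon response motif, GAAA and GAAA with any 2 bases between, was in none of the 13 windows, and 2.98% of the 32851 promoters of the table held it. The antioxidant response motif TGACNNNGC was in none either (10.2% of all promoters). The GAS motif TTCNNNGAA was found in 1 member, Ripk1, as ttcccggaa at 108 and again at 11 bases before one of its 2 starts (7.02% of all promoters). The NF-kB consensus was found in 1 member, Casp4, in overlapping matches on both strands (3.9% of all promoters). Part of the Casp4 promoter is shown because it holds that match, in capitals, and the same part of the Mlkl promoter because Mlkl rose most and held none of the 4. A match in a window is a description of letters and not of a bound factor. Both sequences run from 200 to 51 bases before the start, at chr9:5308649-5308798 on the plus strand for Casp4 and at chr8:111338256-111338405 on the minus strand for Mlkl.
Casp4: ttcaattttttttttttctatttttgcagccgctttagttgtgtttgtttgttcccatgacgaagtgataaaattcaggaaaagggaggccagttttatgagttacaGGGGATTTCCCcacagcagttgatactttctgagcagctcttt
Mlkl: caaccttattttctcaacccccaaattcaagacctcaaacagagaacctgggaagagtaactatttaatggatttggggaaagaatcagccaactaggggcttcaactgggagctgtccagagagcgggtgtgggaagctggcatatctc

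The ferroptosis pair moved in opposite directions. Acsl4 (ENSMUSG00000031278) was at 49.1, 48.0, 35.4, 38.6 and 40.8 CPM in the controls and at 74.4, 103.3, 97.6, 85.1 and 79.9 CPM with puberulic acid. Every treated sample was above every control, a 2.08-fold rise (log2 fold change 1.05 ± 0.12, SE, edgeR adjusted p = 1.14e-05). Gpx4 (ENSMUSG00000075706) was at 809.5, 963.2, 949.3, 1156 and 946.0 CPM in the controls and at 487.6, 431.8, 417.3, 466.1 and 379.6 CPM with puberulic acid. Every treated sample was below every control, a 2.21-fold fall (log2 fold change -1.14 ± 0.11, SE, edgeR adjusted p = 2.60e-06). The size of the Gpx4 fall depended on the scaling, with a log2 fold change of -0.64 on total counts, and its direction and call held in all 19 alternatives. Gpx4 fell in samples whose tubule markers were also lower. All 12 proximal tubule markers were called lower, with a median log2 fold change of -3.11. Of 10 markers of later nephron segments (loop, distal tubule, collecting duct), 8 were called lower, with a median of -1.08, and their summed level was 4576 to 6560 CPM in the controls and 3390 to 6828 CPM with puberulic acid. On total counts 3 of these 10 were called lower and 1 higher. The part of these markers in the fall of Gpx4 was not tested. The ratio of the 2 genes within a library needs no scaling between libraries. The log2 of Acsl4 counts over Gpx4 counts was -4.04, -4.33, -4.74, -4.91 and -4.53 in the controls and -2.71, -2.06, -2.10, -2.45 and -2.25 with puberulic acid. The means were -4.51 ± 0.34 and -2.31 ± 0.27 (SD, n = 5 each), a difference of 2.20 or 4.58-fold, and the groups did not overlap.

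Paralogs of both genes moved in both directions. Of the 5 Acsl genes, which encode long-chain acyl-CoA synthetases, Acsl5 rose from 83.7 ± 28.5 to 144.5 ± 8.31 CPM (log2 fold change 0.79). Acsl1 fell from 184.9 ± 52.1 to 78.1 ± 29.3 CPM (log2 fold change -1.24). Acsl3, known to favour the less oxidizable monounsaturated acids, fell from 26.2 ± 4.49 to 12.4 ± 0.819 CPM (log2 fold change -1.08; SD, n = 5 in each). Acsl6 was at 0.349 ± 0.419 and 0.524 ± 0.12 CPM (SD, n = 5 each) and was not called. Acsl4 was thus 1 of 2 members of its family that rose.

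Of the glutathione peroxidases, Gpx1, Gpx3 and Gpx6 fell alongside Gpx4. Gpx3, the secreted enzyme made in the kidney tubule, went from 27821 ± 7132 to 10962 ± 1215 CPM (log2 fold change -1.34), and Gpx1, the cytosolic enzyme, from 2121 ± 203.6 to 1157 ± 171.0 CPM (log2 fold change -0.87; SD, n = 5 each). Gpx6 had a log2 fold change of -1.20. The 2 family members that rose, Gpx7 (2.01 ± 0.949 to 5.12 ± 1.26 CPM, log2 fold change 1.35) and Gpx8 (11.8 ± 1.38 to 18.7 ± 3.73 CPM, log2 fold change 0.66; SD, n = 5 each), encode enzymes of the endoplasmic reticulum. The remaining genes, Gpx2 and Gpx5, were too low to be tested. These directions of the tested Acsl and Gpx genes were the same under the 3 other scalings.

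**Figure D4:**
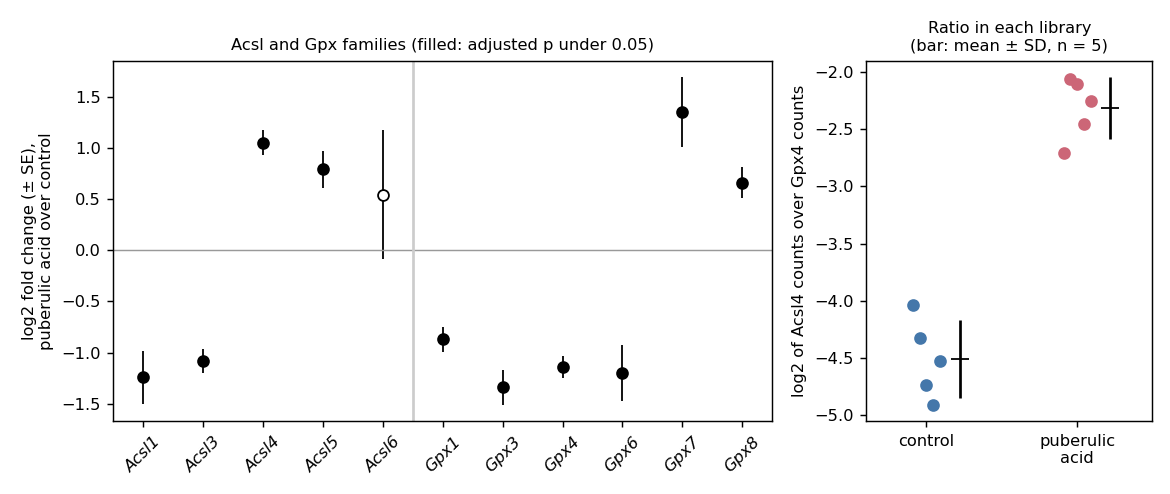
Left, log2 fold change (± SE) of the tested Acsl and Gpx genes, filled where called; right, log2 of Acsl4 counts over Gpx4 counts in each library, with mean ± SD (n = 5). Acsl4 lies at 1.05 and Gpx4 at -1.14, and the ratio is higher in every puberulic acid library than in every control.

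Around the necroptosis genes, 30 of 32 listed genes of death receptor signalling were tested, of which 17 rose, 6 fell and 7 were not called (median log2 fold change 0.34, against 0.05 over all genes). The 4 largest rises were of 3 receptors and of an inhibitor of apoptosis. Tnfrsf1b, the second TNF receptor, rose from 3.04 ± 0.531 to 34.9 ± 3.22 CPM (log2 fold change 3.52). Tnfrsf10b, the receptor for the death ligand TRAIL, rose from 1.96 ± 0.431 to 16.4 ± 2.38 CPM (log2 fold change 3.07). Tlr4, the lipopolysaccharide receptor, and Birc3, a ubiquitin ligase that acts on RIPK1, had log2 fold changes of 2.85 and 2.75. Tnfrsf1a, the TNF receptor that recruits RIPK1, rose from 56.1 ± 5.61 to 116.4 ± 3.95 CPM (log2 fold change 1.05; SD, n = 5 each). Also called higher were Tnfaip3, which encodes the ubiquitin-editing enzyme A20 (log2 fold change 2.43), and Cflar, the partner that tunes caspase-8 (0.65).

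Tnf itself was too low to be tested, at 0 to 0.249 CPM in the controls and 0.111 to 1.39 CPM with puberulic acid, and Fas, at 9.15 ± 2.82 and 6.38 ± 1.39 CPM (SD, n = 5 each), was not called (edgeR adjusted p = 0.0551). Among the 6 that fell were Tnfsf10, which encodes TRAIL (log2 fold change -1.42), Sharpin (-0.55), Fadd, the adaptor of caspase-8 (-0.49), and Rbck1 (-0.46). These falls depended on the settings. On total counts none of the 30 was called lower and 24 were called higher, with Fadd at 0.02 and Rbck1 at 0.05, and without control replicate 1 Tnfsf10 was at -0.39 (edgeR adjusted p = 0.152) and it lost its call in 11 of the 19 alternatives.

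Around the pyroptosis genes, 26 of 31 listed genes were tested, of which 13 rose, 4 fell and 9 were not called (median log2 fold change 0.33). Among those that rose were genes of inflammasome sensors and their adaptor. Nlrp3, the sensor of membrane damage, went from 0.368 ± 0.249 to 3.98 ± 2.09 CPM (log2 fold change 3.41). Pycard, the adaptor ASC, went from 11.7 ± 3.25 to 31.1 ± 7.02 CPM (log2 fold change 1.41). Naip1, from a family of close copies whose reads may be divided uncertainly, went from 0.170 ± 0.179 to 16.9 ± 1.48 CPM (log2 fold change 6.53; SD, n = 5 each). Of the 2 cytokines that caspase-1 matures, Il1b rose from 0.704 ± 0.604 to 8.75 ± 5.65 CPM (log2 fold change 3.63), while Il18 was at 2.80 ± 1.34 and 2.22 ± 0.934 CPM (SD, n = 5 each; edgeR adjusted p = 0.431).

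The other gasdermins moved in both directions. Gsdma, a gasdermin of skin, had no count in any control and reached 2.73 ± 0.390 CPM (SD, n = 5), at least 15.2-fold above the mean control floor of 3 counts per library (0.18 CPM). Gsdme, another pore-forming gasdermin, fell from 9.45 ± 1.64 to 5.34 ± 0.660 CPM (log2 fold change -0.82; SD, n = 5 each), a call lost on total counts. Ninj1, needed for the final rupture of the membrane, fell from 128.6 ± 15.8 to 76.0 ± 4.90 CPM (log2 fold change -0.76), and Nlrp6 from 71.7 ± 7.85 to 11.2 ± 4.73 CPM (log2 fold change -2.68; SD, n = 5 each). Nek7, a cofactor of NLRP3, had a log2 fold change of -0.29 and 0.22 on total counts. Gsdmc2 also fell (log2 fold change -1.44), and 5 further gasdermin genes were too low to be tested. Without control replicate 1, 20 of 28 tested genes of the list were called higher in place of 13 of 26, and the median was 1.58. The interferon-induced genes Gbp2, Gbp3, Gbp5 and Irgm1 of this list were called only without that sample.

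Among the caspases, 7 of the 10 genes rose, 1 fell and 2, among them Casp9, were not called. Casp14, the caspase of cornifying skin, had no count in any control and reached 5.84 ± 0.813 CPM (SD, n = 5), at least 32.4-fold above the control floor. Casp12 rose from 2.01 ± 0.536 to 3.61 ± 1.48 CPM (SD, n = 5 each; log2 fold change 0.85), a call lost in 7 of the 19 alternatives. Casp6 had a log2 fold change of -0.26, called lower, and of 0.25 on total counts, called higher.

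Of 28 genes listed around the lipid substrate and iron supply of ferroptosis, 26 were tested: 8 rose, 16 fell and 2 were not called, with a median log2 fold change of -0.38. The list also holds genes with other roles, among them Ptgs2, Chac1, Nox4, Pebp1, Vdac2 and Vdac3, and its counts include them. The falls included enzymes that make or place polyunsaturated acids. Lpcat3, which places the acyl chains into phospholipid, fell from 138.8 ± 12.2 to 83.0 ± 5.88 CPM (log2 fold change -0.74) and Fads2, a desaturase that makes polyunsaturated acids, from 176.6 ± 15.7 to 40.2 ± 6.79 CPM (log2 fold change -2.13; SD, n = 5 each). Agpat3 and Por, an oxidoreductase that promotes lipid peroxidation, had log2 fold changes of -1.31 and -1.56, and Nox4, an oxidase of the proximal tubule, one of -2.35. The rises were led by Ptgs2, a common marker of ferroptotic tissue, from 0.221 ± 0.129 to 10.5 ± 3.66 CPM (log2 fold change 5.56), Alox5 (2.37), Hmox1, the haem-degrading enzyme, from 33.7 ± 11.6 to 131.0 ± 37.0 CPM (1.96; SD, n = 5 each), and Chac1 (1.54). Tfrc, the transferrin receptor, was at 59.7 ± 24.2 and 50.9 ± 10.6 CPM (SD, n = 5 each; edgeR adjusted p = 0.480). On total counts the list had 11 genes higher and 8 lower and a median of 0.13.

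All 35 listed genes of ferroptosis defence were tested, of which 7 rose, 14 fell and 14 were not called (median log2 fold change -0.27). Slc7a11, which imports cystine for glutathione, rose from 0.418 ± 0.367 to 3.81 ± 0.951 CPM (log2 fold change 3.19). Gch1, which makes the antioxidant tetrahydrobiopterin, rose from 1.47 ± 0.25 to 18.2 ± 4.45 CPM (log2 fold change 3.62). Hspb1, a small heat shock protein, and Mboat1, a phospholipid acyltransferase, had log2 fold changes of 3.98 and 2.47. Nfe2l2, which encodes NRF2, rose from 81.9 ± 7.41 to 164.3 ± 19.5 CPM (log2 fold change 1.00; SD, n = 5 each). Aifm2, which encodes the ubiquinone reductase FSP1, was at 24.0 ± 3.02 and 27.4 ± 1.46 CPM and was not called (edgeR adjusted p = 0.104), though it was in 3 of the 19 alternatives, with a log2 fold change of 0.70 on total counts. The mitochondrial enzyme gene Dhodh fell from 16.0 ± 5.63 to 7.54 ± 1.27 CPM (log2 fold change -1.08; SD, n = 5 each).

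The falls in the defence list included both transsulfuration enzymes, which lead from homocysteine to cysteine, Cbs (229.8 ± 48.3 to 45.1 ± 11.5 CPM, log2 fold change -2.35) and Cth (199.1 ± 16.4 to 53.1 ± 9.64 CPM, log2 fold change -1.91; SD, n = 5 each). They also included genes that selenoproteins such as GPX4 need for their synthesis: Sephs2, which makes the selenium donor, went from 407.0 ± 40.2 to 105.0 ± 27.4 CPM (log2 fold change -1.95) and Eefsec, the elongation factor for selenocysteine, from 38.1 ± 3.45 to 11.0 ± 1.55 CPM (log2 fold change -1.78; SD, n = 5 each). Fth1, the ferritin heavy chain, was at 5804 ± 455.8 and 4164 ± 417.9 CPM (SD, n = 5 each), with a log2 fold change of -0.48 that was 0.03 on total counts. On that scale the list had 14 genes higher and 11 lower and a median of 0.25. The tubule markers described beside Gpx4 moved in the same direction as the genes that fell in both ferroptosis lists, and their part in these falls was not tested.

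**Figure D5:**
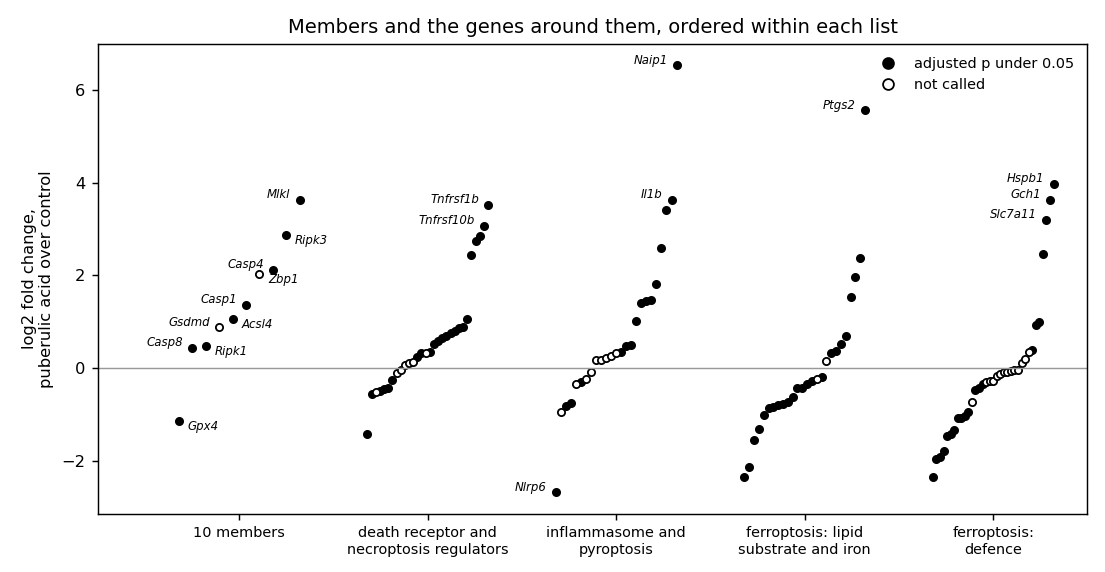
Log2 fold change of puberulic acid over Control for the 10 members and for the tested genes of 4 lists around them, ordered within each list and filled where called; Gsdma, with no control count, is left out. Named genes at the top include Naip1 (6.53) and Ptgs2 (5.56), and most genes of the lipid and iron list lie below 0.

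Genes whose levels ran most like those of a member were found by Pearson's r of log2(CPM + 1) over the 10 samples, which share the group difference, and are given as a description. For Mlkl they were Oasl1 (r = 0.996), Gas5 (0.992) and Cyp2a5 (0.990). For Gsdmd they were Ubd (0.979), Xaf1 (0.979) and Ssb (0.978), and for Acsl4 they were Hkdc1 (0.990), Efcab11 (0.988) and Adgrf1 (0.988).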

How the data were processed

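Per the file's values, the authors deposited unnormalized estimated counts for each gene, many with decimals. The submitters' processing notes name fastp 0.22.0, FastQC 0.12.1, MultiQC 1.28, Salmon 1.10.3, DESeq2 and the build GRCm39, with no role; the annotation is not given in the sources used here. Libraries were strand-specific and poly(A)-selected, per the labels' protocols. Of the identifiers, 51344 of 55822 had a symbol. The names of 10 sample columns matched no single lot and were not used.

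Counts were rounded. Genes were kept with filterByExpr, scaled with TMM factors and tested on the 5 Control and 5 puberulic acid samples with edgeR 4.0.16 (glmQLFit, glmQLFTest) in R 4.3.3; standard errors are the log2 fold change over the square root of F. The script was tested on simulated data. Alternatives were RLE, upper-quartile and total-count scaling, no filter, 1 CPM in at least 5 samples, DESeq2 1.42.0, limma-trend (limma 3.58.1), a robust fit, a block on the replicate number, and fits without each sample in turn. A floor of 3 counts was 0.0964 to 0.195 CPM and covers counting error only. Irgb10 matched no row.

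The members and lists were chosen with earlier results of these data known; the counts of lists under other settings and the interferon-induced list were added after the values were seen. Members are left out of the counts of the 4 pathway lists. Named are all members, some genes set by name, the tested Acsl and Gpx genes, and per list the 4 largest called changes in each direction with a mean of at least 1 CPM in a group. Some genes that this rule or the lists name are not reported here.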

Additional observations from a re-analysis of the deposited data

Results flagged for a closer look

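The highest and lowest of each set of 5 values were checked for standing apart, by Dixon's ratio of gap to range with a limit of 0.71. The 36 sets were the 10 members, the ratio of Acsl4 to Gpx4 and 7 marker sums, each in both groups. An isolated value appeared in 5 of them, and about 1.8 would appear by chance alone. Control replicate 1 was the highest control for Zbp1 (18.4 CPM, gap 0.941, others 0.738 to 1.78), for Gsdmd (11.6 CPM, gap 0.826, others 2.40 to 4.01) and for Ripk1 (37.3 CPM, gap 0.793, others 26.5 to 28.7). Puberulic acid replicate 1 had the highest summed level of its group for proximal tubule markers (2671 CPM, gap 0.838, others 1483 to 1675) and for loop, distal tubule and collecting duct markers (6828 CPM, gap 0.723, others 3390 to 4342).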

How the results depend on the processing

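The count of called members was 8 as reported and was 8 to 10 with all samples under another setting, and 7 to 10 when 1 sample was left out. All 10 were called with upper-quartile or total-count scaling, DESeq2 or limma-trend, without control replicate 1, and without puberulic acid replicate 1. No member changed direction in any of the 19 alternatives. The genes called over the whole table numbered 10622, and 9960 to 11844 under the alternatives. Total counts gave 9179 higher and 2526 lower, or 78.4% higher, against 52.4%. Of 141 tested genes of the lists and families, 105 were called, and 14 of these changed sign on total counts, 4 of them (Casp6, Ticam1, Vdac2 and Vdac3) with a call. Without control replicate 1, 10 genes not called before were called and 2 calls (Slc40a1 and Tnfsf10) were lost. The difference in the log2 ratio of Acsl4 to Gpx4, 2.20, was 2.10 to 2.31 when any 1 sample was left out. Same-numbered samples did not deviate together (r from -0.17 to 0.039, with 1 of 10 samples correlating best with its own number). With the replicate block, 10325 genes and 8 members were called; Casp1 lost its call (log2 fold change 1.38, adjusted p = 0.0522) and Zbp1 gained one (3.19, edgeR adjusted p = 0.0303). Counts of 9 to 59 for Casp1, Casp4, Ripk3 and Mlkl in the control libraries limit the precision of their fold changes.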
